A study of Mus musculus with 6 samples.

Results

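Chemokines and their receptors were read in wounded diabetic mouse skin, as 48 genes of the 16131 in the deposited table. They were chosen by symbol: every Ccl, Cxcl, Cx3cl or Xcl ligand and every Ccr, Cxcr, Cx3cr, Xcr or Ackr receptor with a number in its name, together with Ccrl2, Ppbp and Pf4. This gave 33 ligands and 15 receptors. The skin came from C57BL/6 mice in which streptozotocin, a toxin of insulin-producing cells, had caused diabetes, and was taken on day 7 after wounding. The wounds of 3 samples had received recombinant FGF4 (rFGF4, 100 ng/ml at 10 µl/day), and those of 3 samples phosphate-buffered saline (PBS, 10 µl/day). All 6 samples are from diabetic mice, so neither undiabetic nor unwounded skin is part of the comparison, and the labels do not say whether the samples are separate animals.

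Chemokines are small secreted proteins that draw leukocytes along a gradient by binding G-protein-coupled receptors on the migrating cell. Cxcr2 ligands such as Cxcl1 and Cxcl2 recruit neutrophils early in a wound, Ccr2 ligands such as Ccl2, Ccl7 and Ccl12 recruit monocytes that become wound macrophages, and Cxcr3 ligands such as Cxcl9 and Cxcl10 recruit effector T cells after interferon. Atypical receptors (Ackr) take chemokines up without the usual G-protein signal and so shape the gradient. Diabetic wounds are known for leukocytes that persist late in healing.

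Ccl12 and Ackr3 were called higher with rFGF4 in the values as deposited. Cxcl1, Cxcl2 and Cxcl3 are neighbouring neutrophil ligands, none of which was called, and differences between them were not tested. Cxcl10 stood high in 1 PBS library. The stretches upstream of these 6 genes are shown. Each is the 250 bases before the RefSeq start on GRCm38.p6, 5′ to 3′ on the gene's strand, with motif matches in capitals.
Ccl12, chr11:82101595-82101844, plus strand: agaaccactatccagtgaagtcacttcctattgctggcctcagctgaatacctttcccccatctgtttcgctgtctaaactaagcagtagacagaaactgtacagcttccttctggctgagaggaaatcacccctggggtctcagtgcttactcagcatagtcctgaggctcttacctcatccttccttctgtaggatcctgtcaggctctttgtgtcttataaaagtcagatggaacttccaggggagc
Ackr3, chr1:90203730-90203979, plus strand: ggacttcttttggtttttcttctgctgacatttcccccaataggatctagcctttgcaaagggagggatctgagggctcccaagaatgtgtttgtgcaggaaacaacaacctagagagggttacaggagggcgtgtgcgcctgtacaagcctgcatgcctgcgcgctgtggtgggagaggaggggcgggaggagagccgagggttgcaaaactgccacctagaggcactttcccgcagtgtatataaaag
Cxcl1, chr5:90890995-90891244, plus strand: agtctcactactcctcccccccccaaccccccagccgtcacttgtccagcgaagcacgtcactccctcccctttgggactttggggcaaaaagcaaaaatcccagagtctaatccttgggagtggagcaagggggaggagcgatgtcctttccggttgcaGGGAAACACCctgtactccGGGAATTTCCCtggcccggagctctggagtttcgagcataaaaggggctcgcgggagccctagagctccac
Cxcl2, chr5:90903649-90903898, plus strand: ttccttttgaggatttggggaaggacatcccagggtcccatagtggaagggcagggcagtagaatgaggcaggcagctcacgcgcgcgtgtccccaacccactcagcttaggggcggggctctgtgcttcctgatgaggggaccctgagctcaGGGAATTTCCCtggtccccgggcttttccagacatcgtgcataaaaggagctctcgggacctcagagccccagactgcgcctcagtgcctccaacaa
Cxcl3, chr5:90785851-90786100, plus strand: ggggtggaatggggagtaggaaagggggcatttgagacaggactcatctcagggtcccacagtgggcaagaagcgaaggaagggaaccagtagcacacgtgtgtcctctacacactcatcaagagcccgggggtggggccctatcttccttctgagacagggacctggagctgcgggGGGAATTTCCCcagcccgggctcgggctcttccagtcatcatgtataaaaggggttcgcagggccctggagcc
Cxcl10, chr5:92348890-92349139, minus strand: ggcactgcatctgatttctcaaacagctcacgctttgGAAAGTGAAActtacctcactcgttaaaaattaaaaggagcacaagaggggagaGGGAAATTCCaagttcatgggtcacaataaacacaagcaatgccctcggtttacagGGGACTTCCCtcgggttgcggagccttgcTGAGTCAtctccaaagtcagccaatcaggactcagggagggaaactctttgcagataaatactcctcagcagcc

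The motifs searched, on both strands, were GGGA and CC with any 4 bases between them for NF-kB, GAAA and GAAA with any 2 bases between them for the interferon-stimulated response element (ISRE), and TGANTCA for AP-1. Cxcl1, Cxcl2 and Cxcl3 share the run GGGAATTTCCC, in which overlapping matches on the plus and minus strands begin 71 and 70, 97 and 96, and 73 and 72 bases before the start of the gene. Cxcl1 has a further NF-kB match 90 bases before its start. Cxcl10 has NF-kB matches 159 and 103 bases, an ISRE match 213 bases and an AP-1 match 74 bases before its start. The windows of Ccl12 and Ackr3 hold none of these letters. The 38 members found in the RefSeq promoter table have 46 windows, some of them of near-identical copies. Of these windows 13 (28.3%) had an NF-kB match, against 17.6% of all 32851 windows of that length, 2 (4.35%, against 2.98%) an ISRE match and 6 (13%, against 6.75%) an AP-1 match. These are matches of letters and no measure of binding.

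Ccl12, a ligand of the monocyte receptor Ccr2, and the scavenging receptor Ackr3 rose with rFGF4 in the values as deposited, and no member was called lower. Values are FPKM, which scale fragments to transcript length and to the fragments mapped in a library. The 42 members (30 ligands and 12 receptors) at 1 FPKM or more in 3 or more libraries were tested by limma on log2(FPKM + 0.1), with Benjamini-Hochberg adjustment over all 14676 genes tested and a threshold of 0.05. Ackr3 and Ccl12 were called, both higher, so 2 of 42 members stood against 12.1% of all tested genes (8.46% higher and 3.62% lower). The median log2 fold change was 0.20 over the members and 0.194 over all tested genes. Centring each library on its median moved the median of all genes to 0.014 and turned the 1241 higher and 532 lower calls into 138 and 617, and quantile normalization moved it to 0.066 with 235 higher and 514 lower calls. In both, Ackr3 (log2 fold changes 0.88 and 0.89, limma adjusted p = 0.0775 and 0.0706) and Ccl12 (0.91 and 0.93, limma adjusted p = 0.0953 and 0.0806) stayed positive and missed the threshold. The groups did not overlap in 9 tested members, 7 higher and 2 lower with rFGF4, against 30.9% of all tested genes higher and 7.36% lower. At an unadjusted p under 0.05 there were 7 members higher and 0 lower, against 25.5% and 6.58% of all tested genes.

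Transcript length bears on every value below. Fold changes of all tested genes rose with length (a rank correlation of 0.502 across genes, a description since genes do not replicate each other), and chemokine ligands are short, with a median of 1037 bases over 32 ligands against 2719 bases over all tested genes and 2459 bases over the 15 receptors. Among the 857 tested genes of up to 600 bases the median log2 fold change was -0.55, with 259 called lower and 16 higher, and Ccl12 is among those 16. A second value is therefore given beside the results of tested members described at length, in which the trend with length was removed from every library. In that setting 2 of 41 members were called, Ccl12 and Ccl7, both higher, against 2.16% of all tested genes (0.543% higher and 1.61% lower). The members' median was then 0.16 and that of all genes -0.020, with 8 members higher and 0 lower at an unadjusted p under 0.05, against 8.1% and 8.13% of all genes. The listed FPKM summed to between 304717 and 319807 per library, and the depth behind a single value is unknown.

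**Figure D1:**
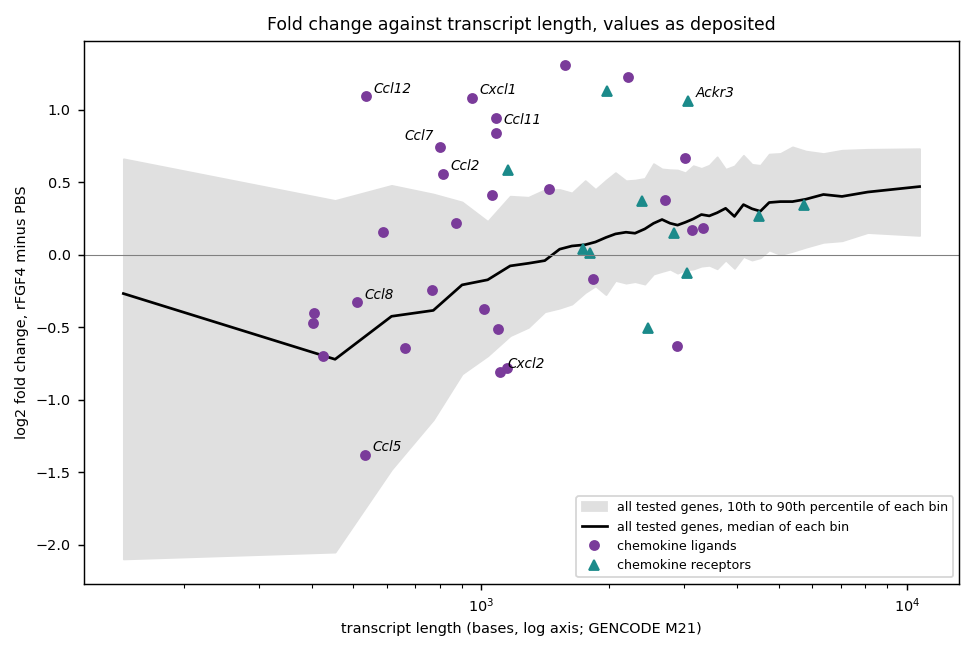
Each point is a chemokine ligand or receptor, placed by transcript length in bases (log axis) and by its log2 fold change as deposited, rFGF4 minus PBS; the line and band give the median and the 10th to 90th percentile of all tested genes in bins of equal size. Ccl12 (537 bases, 1.09) and Cxcl1 (953 bases, 1.08) lie above the band of genes as short as they are, and Ackr3 (3065 bases, 1.06) lies above the band at a length where the median itself is above 0.

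Among ligands that attract monocytes and macrophages, Ccl12 and Ccl7 were higher with rFGF4. Ccl12, a mouse ligand of Ccr2, measured 10.6, 11.7 and 8.34 FPKM in rFGF4 libraries, against 4.41, 3.39 and 6.92 FPKM in PBS libraries. All rFGF4 libraries lay above all PBS libraries, with PBS replicate 3 nearest. The log2 fold change was 1.09 (SE 0.270, limma adjusted p = 0.047) as deposited and 1.64 (SE 0.262, limma adjusted p = 0.0332) with the length trend removed. Ccl7, which binds Ccr2 and other receptors, measured 36.4, 36.7 and 44.4 FPKM with rFGF4, against 27.1, 17.6 and 26.4 FPKM with PBS. The groups did not overlap. Its log2 fold change was 0.74 (SE 0.195, limma adjusted p = 0.0524) as deposited, just short of the threshold, and 1.07 (SE 0.189, limma adjusted p = 0.0452) with the length trend removed. When each library was left out in turn, Ccl12 stayed called without PBS replicate 3 alone (limma adjusted p = 0.0439, otherwise 0.0771 to 0.124), and Ccl7 was called in none of these fits (limma adjusted p 0.0855 to 0.124).

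Ccl2, the best known Ccr2 ligand, measured 11.7, 26.4 and 18.5 FPKM with rFGF4 and 14.1, 7.99 and 15.9 FPKM with PBS. The groups overlapped, and the log2 fold change was 0.56 as deposited (limma adjusted p = 0.336) and 0.87 with the length trend removed (95% interval 0.16 to 1.58, limma adjusted p = 0.229). Ccl2, Ccl7, Ccl11, Ccl12 and Ccl8 lie in that order within 79.6 kb on chromosome 11, from the start of Ccl2 at chr11:82035571-82037453 to that of Ccl8 at chr11:82115185-82116799 (GRCm38, plus strand, all protein-coding). Ccl12 is at chr11:82101845-82103400 and Ccl7 at chr11:82045712-82047525. This row of neighbours was looked at after the values were seen. As deposited 4 of the 5 had a positive log2 fold change, as did 10248 of all 14676 tested genes, while Ccl8 had -0.33. Of the 5, 3 were higher at an unadjusted p under 0.05, against 25.5% of all tested genes, and 1 was called higher, against 8.46%. With the length trend removed all 5 were positive, as were 6719 of 14191 tested genes. Ccl8 at the end of the row then had 0.25 (95% interval -0.66 to 1.15). In that setting 4 were higher at an unadjusted p under 0.05, against 8.1% of all tested genes, and 2 were called higher, against 0.543%. These 2, Ccl12 and Ccl7, are the only members called there and were known when the row was chosen. The shares are therefore no test of the row.

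**Figure D2:**
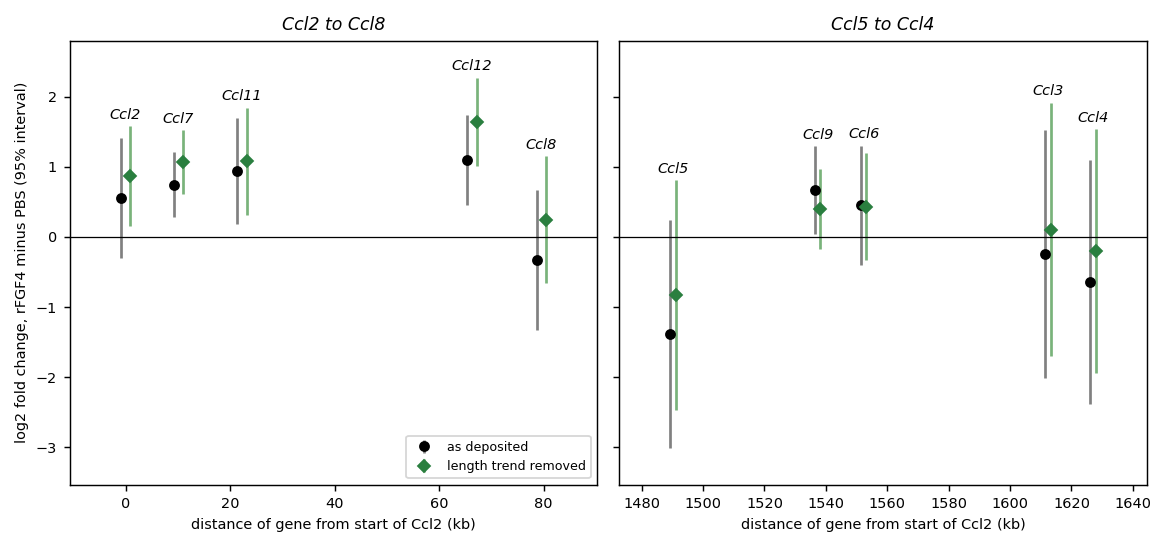
Log2 fold changes, rFGF4 minus PBS, with 95% intervals are set against the distance of each gene from the start of Ccl2 in kb, as deposited (circles) and with the length trend removed (diamonds), drawn slightly to the left and right of each position. Ccl2 to Ccl12 lie between 0.87 and 1.64 with the length trend removed, while the intervals of Ccl3 and Ccl4 in the second group of genes reach far to both sides of 0 and that of Ccl5 as deposited lies mostly below 0, with an upper end at 0.24.

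The second group on chromosome 11 holds further ligands of monocytes and macrophages. Ccl9 measured 27.3, 49.2 and 31.9 FPKM with rFGF4, against 23.9, 16.8 and 26.5 FPKM with PBS. These groups did not overlap, but the gene did not pass (log2 fold change 0.67, limma adjusted p = 0.138, and 0.40, limma adjusted p = 0.457, after removal of the length trend). Its neighbour Ccl6, another ligand of Ccr1, measured 57.2, 148 and 80.1 FPKM with rFGF4 and 56.4, 56.0 and 84.2 FPKM with PBS. Ccl3 and Ccl4, which activated macrophages and neutrophils release, varied far more between libraries than between groups. Ccl3 measured 133.7, 182 and 43.7 FPKM with rFGF4, against 45.2, 167 and 234 FPKM with PBS, and Ccl4 42.2, 106 and 29.0 FPKM with rFGF4, against 27.9, 116 and 153 FPKM with PBS. In both genes rFGF4 replicate 3 and PBS replicate 1 were low and PBS replicate 3 was highest. The intervals of their log2 fold changes, -2.01 to 1.52 for Ccl3 and -2.38 to 1.09 for Ccl4 (-1.70 to 1.92 and -1.94 to 1.53 with the length trend removed), leave room for changes of either sign. Of the remaining ligands of this group, Cx3cl1, the membrane-bound fractalkine, averaged 3.04 ± 0.334 FPKM with rFGF4 and 2.69 ± 0.505 FPKM with PBS (SD, n = 3 each). Cxcl14, a chemokine of resting skin, averaged 29.2 ± 9.85 FPKM with rFGF4 and 34.0 ± 15.4 FPKM with PBS (SD, n = 3 each).

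The monocyte and macrophage receptors Ccr2, Ccr1 and Cx3cr1 did not pass. Ccr2 itself, whose ligands are described above, measured 12.6, 15.1 and 10.2 FPKM with rFGF4, against 8.80, 6.83 and 15.6 FPKM with PBS. Its log2 fold change was 0.34 (95% interval -0.40 to 1.09) as deposited and -0.05 (-0.77 to 0.66) with the length trend removed. Ccr1, a receptor of Ccl3, Ccl6 and Ccl9, had the highest mean FPKM of the receptors, at 46.1, 68.6 and 29.6 FPKM with rFGF4 and 21.4, 46.7 and 68.2 FPKM with PBS. Cx3cr1 averaged 2.54 ± 0.872 FPKM with rFGF4 and 2.08 ± 0.584 FPKM with PBS (SD, n = 3 each).

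Markers of cells that make or carry these genes were read beside them. Of 11 macrophage markers, all tested, 2 rose as deposited (Mrc1 and Cd163), against 8.46% of all tested genes. With the length trend removed 1 rose (Mrc1), against 0.543%. In both settings 10 of the 11 were positive, as were 10248 of 14676 and 6719 of 14191 tested genes. At an unadjusted p under 0.05, 4 were higher as deposited and 5 with the length trend removed, against 25.5% and 8.1%. The summed level of the 11 ran from 1048 to 2040 FPKM with rFGF4 and from 829 to 1688 FPKM with PBS. Lyz2 makes up most of that sum (547 to 1309 and 443 to 1137 FPKM). Of 4 markers of inflammatory monocytes none was called, and their sum was 39.0 to 70.3 FPKM with rFGF4 against 41.7 to 113 FPKM with PBS. Of 6 fibroblast markers 4 rose as deposited, against 8.46% of all tested genes, and 0 with the length trend removed, against 0.543%. All 6 were positive in both settings, with median log2 fold changes of 0.86 and 0.52. At an unadjusted p under 0.05, 6 of these markers were higher as deposited and 3 with the length trend removed, against 25.5% and 8.1%. Their sums were 3497 to 3721 FPKM with rFGF4 against 1943 to 2465 FPKM with PBS. Of 5 blood endothelial markers 0 were called in either setting, and 5 were positive as deposited and 4 with the length trend removed. Of 2 listed lymphatic endothelial markers 1 rose as deposited (Lyve1), against 8.46%, and 0 with the length trend removed, against 0.543%. Both were positive in both settings. The part of all these cells in the differences of Ccl12, Ccl7 and Ackr3 was not tested. In bulk skin more cells of a type and more RNA per cell cannot be told apart. The labelled tissue showed its own markers, with Krt14 of basal keratinocytes at 1132 to 1829 FPKM in rFGF4 and 1079 to 3776 FPKM in PBS libraries. The 7 keratinocyte markers summed to 3515 to 5203 FPKM with rFGF4 and 2849 to 10029 FPKM with PBS. Muscle RNA was also present, and 5 skeletal muscle markers summed to 1161 to 2305 FPKM with rFGF4 and 1745 to 3769 FPKM with PBS. No marker of these 2 lists was called.

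**Figure D3:**
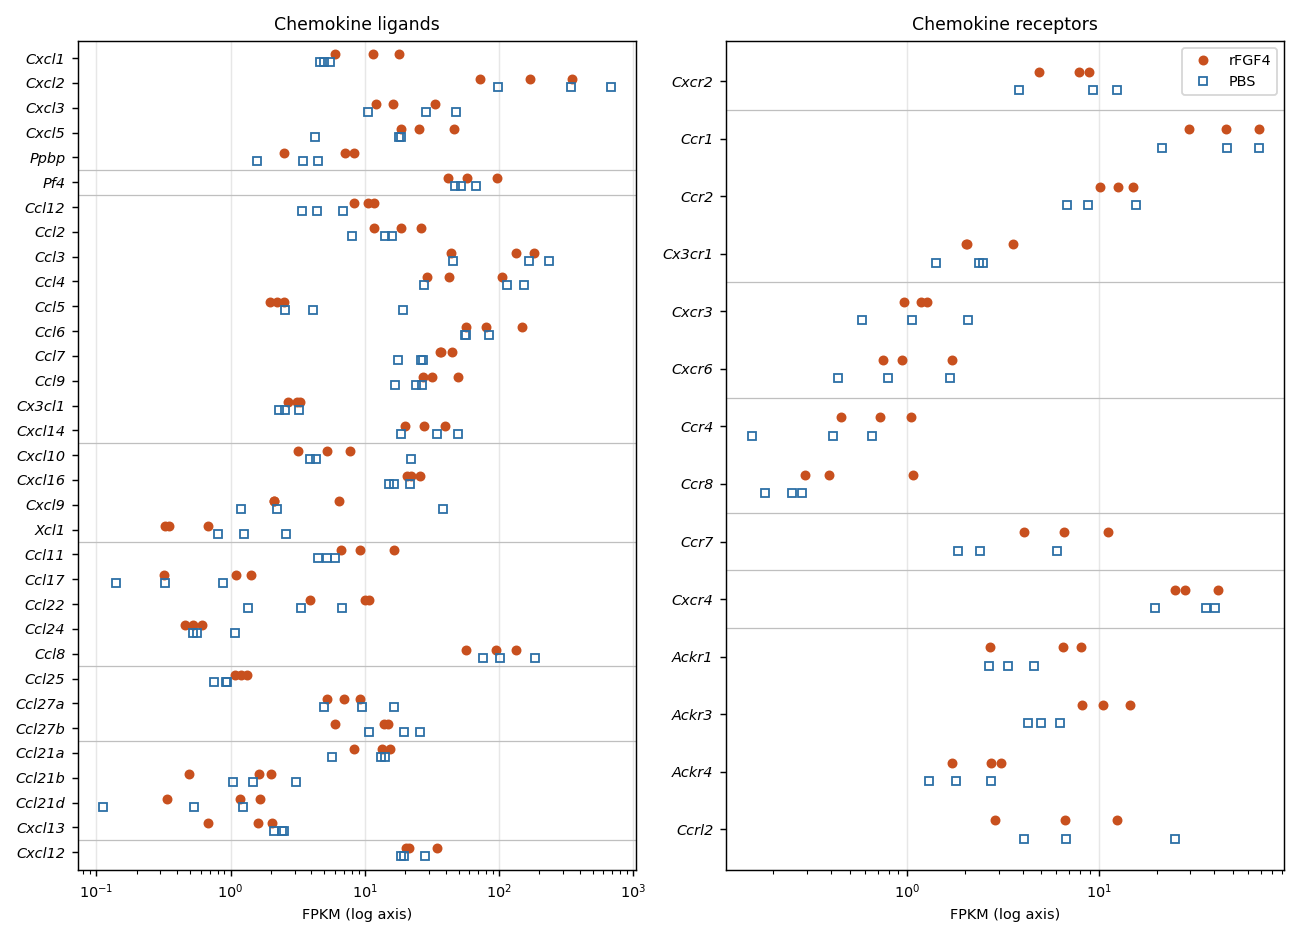
FPKM of the chemokine genes in every library (log axis), with rFGF4 libraries as filled circles above and PBS libraries as open squares below; lines part the groups of attracted cells. The groups part in 11 genes, 8 higher with rFGF4 (among them Ccl12, Ccl7 and Ackr3) and 3 lower (Ccl5, Cxcl13 and Xcl1). Ccr8 and Xcl1 among them were not tested, and of all tested genes 30.9% part higher and 7.36% lower. Single PBS libraries stand far right in Cxcl9 (38.6 FPKM) and Ccl5 (19.4 FPKM).

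No neutrophil ligand passed, and the ligands did not share a direction. Cxcl1 measured 6.04, 17.9 and 11.5 FPKM with rFGF4, against 4.61, 4.97 and 5.54 FPKM with PBS. The groups did not overlap and rFGF4 replicate 1 was close to the PBS libraries. The log2 fold change of 1.08 (SE 0.363) had a limma adjusted p of 0.0948, and 1.30 (SE 0.307) with the length trend removed had one of 0.108. Without rFGF4 replicate 1, Cxcl1 passed, at 1.49 as deposited (limma adjusted p = 0.0382) and at 1.64 (limma adjusted p = 0.0298) after removal of the length trend.

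Cxcl2 was the most abundant member, at 169.7, 353 and 71.8 FPKM with rFGF4, against 98.5, 344 and 680.0 FPKM with PBS. Its libraries spread over a range within PBS of 6.90-fold and within rFGF4 of 4.91-fold, and the difference of -0.81 on the log2 scale had an interval of -2.75 to 1.14 (-0.68, -2.65 to 1.30, with the length trend removed). Cxcl3 followed the same order of libraries as Cxcl2 in part, at 16.4, 33.3 and 12.2 FPKM with rFGF4, against 10.6, 28.8 and 47.5 FPKM with PBS. Cxcl5, which keratinocytes and other epithelial cells make in inflammation, measured 25.3, 18.7 and 46.3 FPKM with rFGF4, against 18.7, 4.24 and 17.9 FPKM with PBS. Its log2 fold change was 1.30 (95% interval -0.16 to 2.77, limma adjusted p = 0.199), and 1.25 with the length trend removed. The platelet gene Ppbp, whose cleaved product binds Cxcr2, averaged 5.99 ± 3.10 FPKM with rFGF4 and 3.18 ± 1.47 FPKM with PBS (SD, n = 3 each). Pf4, the other platelet chemokine, which macrophages also transcribe, averaged 65.5 ± 28.6 FPKM with rFGF4 and 55.8 ± 10.6 FPKM with PBS (SD, n = 3 each). Its log2 fold change was 0.16 (limma adjusted p = 0.776) as deposited and 0.66 (unadjusted p = 0.0282, limma adjusted p = 0.252) with the length trend removed. Of 5 platelet markers, 2 are listed in the table, at sums of 1.67 to 3.04 FPKM with rFGF4 and 1.59 to 2.12 FPKM with PBS.

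The neutrophil receptor Cxcr2 measured 8.87, 4.88 and 7.91 FPKM with rFGF4, against 3.83, 9.35 and 12.5 FPKM with PBS. Its difference of -0.13 had an interval of -1.19 to 0.94, and was -0.39 with the length trend removed. The 9 neutrophil markers that are listed, of 11, summed to 362, 776 and 269 FPKM in rFGF4 replicates 1 to 3, against 505, 1543 and 2913 FPKM in PBS replicates 1 to 3, and none of the 7 tested was called. PBS replicate 3 was highest and rFGF4 replicate 3 lowest both in this sum and in Cxcl2. S100a8 and S100a9 make up most of the sum, and the receptor genes Csf3r and Il1r2 were lowest in PBS replicate 1 instead, at 9.67 and 20.2 FPKM. As deposited all 7 tested markers were negative, while 10248 of 14676 tested genes were positive. At an unadjusted p under 0.05, 1 was lower, against 6.58% of all tested genes. This was S100a8, with a log2 fold change of -2.28 (limma adjusted p = 0.0567). Its groups did not overlap, as in 7.36% of all tested genes in that direction. With the length trend removed 1 of the 7 was positive, as were 6719 of 14191 tested genes. S100a8 then had -1.68 (limma adjusted p = 0.254). The part of neutrophil number in the spread of Cxcl2, Ccl3 and Ccl4 was not tested.

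**Figure D4:**
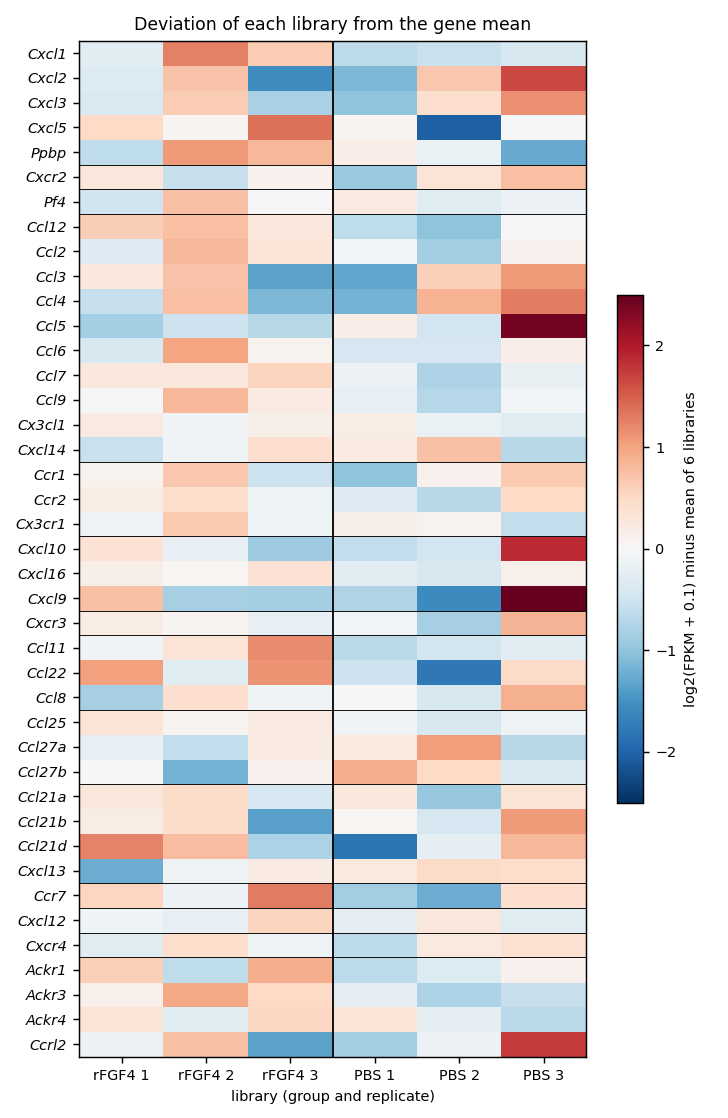
Colour gives log2(FPKM + 0.1) of each tested gene in each library minus its mean over the 6 libraries, with rFGF4 left and PBS right of the line and genes grouped by attracted cell; the darkest shades also stand for values beyond the scale. PBS replicate 3 stands out in Cxcl9, Cxcl10, Ccl5 and Ccrl2, and Cxcl2, Ccl3 and Ccl4 are low in both rFGF4 replicate 3 and PBS replicate 1.

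The T cell ligands Cxcl9 and Cxcl10, and Ccl5 of the monocyte group, which also draws T cells, were far higher in PBS replicate 3 than in any other library. Cxcl9, induced by interferon gamma, measured 6.39, 2.12 and 2.09 FPKM with rFGF4, against 2.23, 1.2 and 38.6 FPKM with PBS. Cxcl10 measured 7.74, 5.20 and 3.16 FPKM with rFGF4, against 3.90, 4.31 and 22.2 FPKM with PBS, and Ccl5, released by T cells and macrophages, 1.96, 2.49 and 2.21 FPKM with rFGF4, against 4.09, 2.56 and 19.4 FPKM with PBS. None passed by limma (adjusted p 0.769, 0.654 and 0.215 for Cxcl9, Cxcl10 and Ccl5). Ccl5 had non-overlapping groups, but by a margin of 2.49 FPKM in the highest rFGF4 library to 2.56 FPKM in the lowest PBS library. Without PBS replicate 3 the log2 fold changes were 0.86 for Cxcl9, 0.29 for Cxcl10 and -0.53 for Ccl5, in place of -0.63, -0.51 and -1.38, so that Cxcl9 and Cxcl10 changed sign. With the length trend also removed, Ccl5 stood at 0.02 without that library. The authors' deposited table gives q = 0.014 for Ccl5 and q = 0.0447 for Xcl1, both lower, beside q = 0.00636 for Ackr3 and q = 0.0493 for Cxcl1, both higher; 11.1% of its genes have q under 0.05. Xcl1, which draws cross-presenting dendritic cells, did not reach the level for testing, at 0.326, 0.680 and 0.346 FPKM with rFGF4, against 1.26, 0.807 and 2.58 FPKM with PBS.

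Cxcl16, a membrane-anchored ligand of Cxcr6, averaged 23.0 ± 2.57 FPKM with rFGF4 and 17.8 ± 3.55 FPKM with PBS (SD, n = 3 each; log2 fold change 0.38, limma adjusted p = 0.175, and 0.14 with the length trend removed). The T cell receptors for these ligands were near the lower limit of testing. Cxcr3 averaged 1.14 ± 0.160 FPKM with rFGF4 and 1.24 ± 0.766 FPKM with PBS (SD, n = 3 each), and Cxcr6, which was not tested, reached at most 1.72 FPKM. Of 9 T cell markers 8 are listed, with sums of 11.5 to 14.0 FPKM in rFGF4 libraries and 6.63 to 19.1 FPKM in PBS libraries. The highest sum was that of PBS replicate 3, and the part of T cells in the values of that library was not tested.

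Ligands linked to eosinophils and type 2 T cells gave no call. Ccl11, eotaxin, which fibroblasts make, measured 6.69, 9.14 and 16.4 FPKM with rFGF4, against 4.47, 5.21 and 5.97 FPKM with PBS. The groups did not overlap, and the log2 fold change was 0.94 (SE 0.318, limma adjusted p = 0.0967) as deposited and 1.08 (SE 0.319, limma adjusted p = 0.178) with the length trend removed. The 3 eosinophil markers read here (Siglecf, Epx and Prg2) have no row in the table. Ccl8, which in the mouse binds Ccr8, was among the most abundant ligands, at 56.6, 135 and 95.5 FPKM with rFGF4, against 101, 76.1 and 187 FPKM with PBS, with no order between the groups. Ccl22, made by dendritic cells and macrophages, measured 9.99, 3.93 and 10.7 FPKM with rFGF4, against 3.37, 1.34 and 6.79 FPKM with PBS (log2 fold change 1.22, limma adjusted p = 0.227, and 1.04 with the length trend removed). Ccl17, its partner as a ligand of Ccr4, reached at most 1.41 FPKM, Ccl24 1.08 FPKM, Ccr4 1.05 FPKM and Ccr8 1.07 FPKM, and these 4 were not tested.

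Chemokines that guide cells to skin, lymphoid tissue and stroma did not pass either. Ccl27a and Ccl27b, which keratinocytes make to hold skin-homing T cells, averaged 7.16 ± 2.03 and 11.6 ± 4.88 FPKM with rFGF4 and 10.4 ± 5.89 and 18.7 ± 7.63 FPKM with PBS (SD, n = 3 each). They are near-identical copies, as are Ccl21a, Ccl21b and Ccl21d, so reads may have been split between them and each value is uncertain. Ccl21a, which lymphatic endothelium makes, averaged 12.3 ± 3.62 FPKM with rFGF4 and 11.05 ± 4.65 FPKM with PBS (SD, n = 3 each), while Ccl21b and Ccl21d stayed at or under 3.10 FPKM. Their receptor Ccr7, which carries dendritic cells to the lymph node, measured 6.59, 4.05 and 11.2 FPKM with rFGF4, against 2.40, 1.84 and 6.07 FPKM with PBS (log2 fold change 1.13, limma adjusted p = 0.186, and 0.98 with the length trend removed). The 6 dendritic cell markers summed to 97.8 to 118 FPKM with rFGF4 and 74.1 to 188 FPKM with PBS. H2-Ab1 makes up most of that sum (86.0 to 102 and 66.5 to 173 FPKM). None of the 5 tested was called. As deposited all 5 were positive, as were 10248 of 14676 tested genes, and their median log2 fold change was 0.50. With the length trend removed 4 were positive, with a median of 0.13. The part of dendritic cells in the values of Ccr7 was not tested.

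Cxcl13, the B cell attractant, was the member besides Ccl5 whose tested groups did not overlap in the lower direction, at 0.676, 1.59 and 2.03 FPKM with rFGF4, against 2.09, 2.49 and 2.40 FPKM with PBS (log2 fold change -0.78, limma adjusted p = 0.203, and -0.68 with the length trend removed). The 4 B cell markers read here have no row in the table. Ccl25, best known from thymus and gut, measured 1.32, 1.07 and 1.2 FPKM with rFGF4, against 0.948, 0.753 and 0.925 FPKM with PBS. These groups did not overlap either, and the log2 fold change was 0.41 (limma adjusted p = 0.246) as deposited and 0.57 (limma adjusted p = 0.297) after removal of the length trend. Cxcl12, which holds progenitors and draws cells bearing Cxcr4, averaged 25.3 ± 7.79 FPKM with rFGF4 and 22.3 ± 5.28 FPKM with PBS (SD, n = 3 each), a log2 difference of 0.17 with an interval of -0.43 to 0.77 (-0.11, -0.77 to 0.56, with the length trend removed). Cxcr4 averaged 31.7 ± 8.95 FPKM with rFGF4 and 32.1 ± 11.05 FPKM with PBS (SD, n = 3 each), a log2 difference of 0.01 with an interval of -0.74 to 0.77 (-0.10, -0.87 to 0.66, with the length trend removed).

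Ackr3, the atypical receptor that takes up Cxcl12, rose with rFGF4. It measured 8.14, 14.6 and 10.5 FPKM in rFGF4 libraries, against 6.31, 4.25 and 4.98 FPKM in PBS libraries, with no overlap (log2 fold change 1.06, SE 0.244, limma adjusted p = 0.0402). Ackr3 is a protein-coding gene at chr1:90203980-90216751 on the plus strand of GRCm38. Its transcript of 3065 bases lies where fold changes of all genes tended upward, and with the length trend removed the log2 fold change was 0.79 (SE 0.221, limma adjusted p = 0.157). Leaving out any single library ended the call (limma adjusted p 0.056 to 0.125). The other atypical receptors did not pass. Ackr1, the receptor of venules and red cells, averaged 5.75 ± 2.73 FPKM with rFGF4 and 3.54 ± 0.992 FPKM with PBS (SD, n = 3 each). Ackr4, which scavenges Ccr7 ligands, averaged 2.51 ± 0.716 FPKM with rFGF4 and 1.94 ± 0.728 FPKM with PBS (SD, n = 3 each). Ccrl2, which binds chemerin and is induced in activated macrophages and neutrophils, measured 6.64, 12.4 and 2.87 FPKM with rFGF4, against 4.06, 6.71 and 25.1 FPKM with PBS, and was highest in PBS replicate 3.

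**Figure D5:**
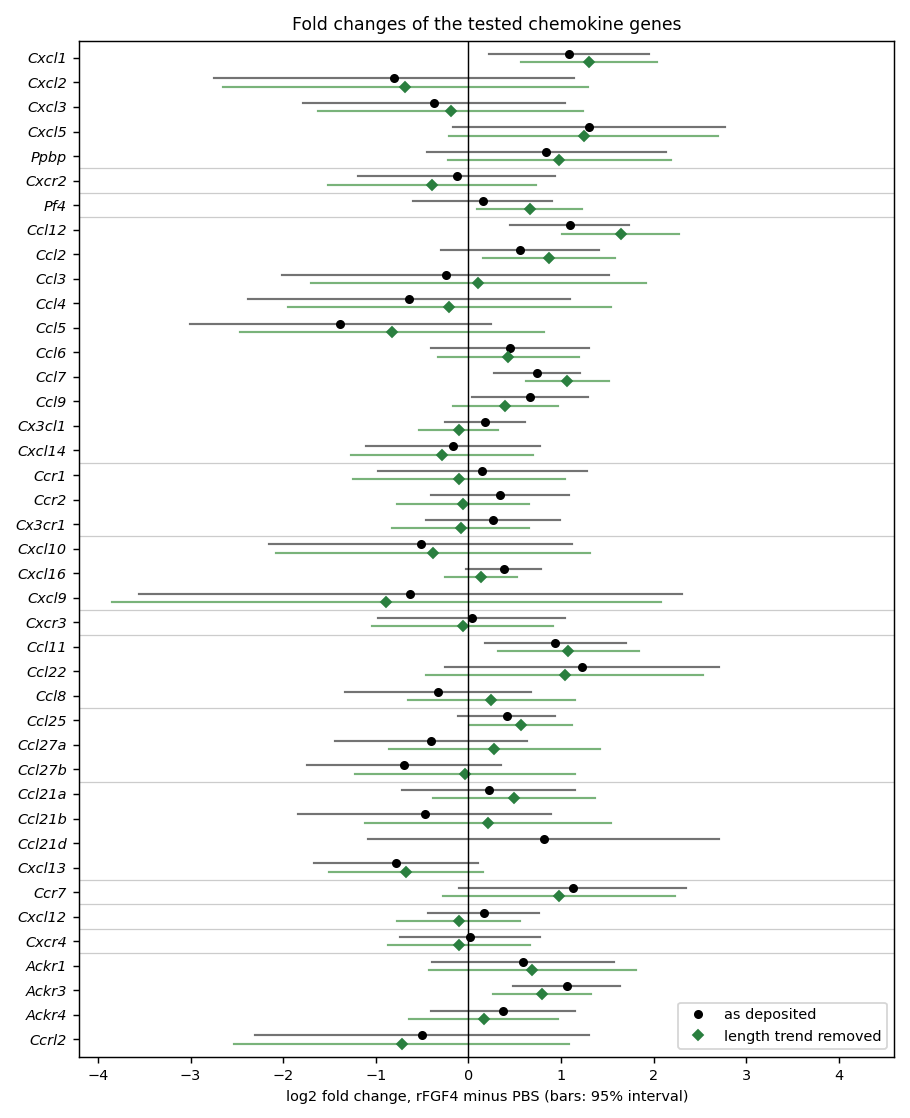
Log2 fold changes of tested chemokine genes, rFGF4 minus PBS, with 95% intervals, as deposited (circles) and with the length trend removed (diamonds; Ccl21d has no annotated length); lines part the groups of attracted cells. Removal of the trend moves short ligands such as Ccl12 to the right (1.09 and 1.64) and long receptors such as Ccr2 to the left (0.34 and -0.05).

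The genes that act after or before the chemokines gave few calls, all higher with rFGF4, where 8.46% of all tested genes were called higher with a median log2 fold change of 0.194. Of 42 genes of chemokine receptor signalling 3 rose, a share near that of all genes, with a median log2 fold change of 0.32. They were Rap1b and Rap1a, small GTPases that activate integrins, and Rgs16, a brake on G-protein signalling. Rap1b averaged 88.1 ± 4.54 FPKM with rFGF4 and 54.0 ± 7.10 FPKM with PBS, Rap1a 33.6 ± 2.61 FPKM with rFGF4 and 23.6 ± 2.31 FPKM with PBS, and Rgs16 9.52 ± 2.16 FPKM with rFGF4 and 4.76 ± 0.589 FPKM with PBS (SD, n = 3 each). Of 31 genes that induce chemokines, such as NF-kB subunits and receptors for interleukin 1 and interferon, 2 rose, again near the share of all genes (median 0.30). Il1r1, the signalling receptor of interleukin 1, averaged 28.1 ± 9.46 FPKM with rFGF4 and 10.6 ± 0.850 FPKM with PBS, and the adaptor Traf6 6.13 ± 0.325 FPKM with rFGF4 and 4.29 ± 0.167 FPKM with PBS (SD, n = 3 each). Of 8 genes that process chemokines or their receptors 1 rose (median 0.69), the protease Dpp4, which trims Cxcl10 and Cxcl12, at 6.61 ± 1.84 FPKM with rFGF4 and 3.53 ± 0.172 FPKM with PBS (SD, n = 3 each). Tpst1, which sulfates chemokine receptors, had a log2 fold change of 0.48 that did not pass (limma adjusted p = 0.0503). With the length trend removed limma called 0 genes of these 3 lists, whose medians were then 0.05, 0.00 and 0.43.

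Chemokine genes varied between libraries of 1 group more than most genes did. The median SD of log2(FPKM + 0.1) within groups was 0.610 over the 42 tested members and 0.223 over all tested genes, and 25 members lay above the 90th percentile of all genes. Cxcl9 was the most variable, with an SD of 1.96 and a 32.1-fold range among PBS libraries, followed by Cxcl2 with an SD of 1.29. The intervals of such genes are wide, and a missed threshold there does not show that the groups are alike.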

How the data were processed

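Poly(A) RNA of 6 skin samples, 3 per group, was sequenced as strand-marked paired-end libraries, per the labels' protocols. fastp, HISAT2, StringTie, edgeR and the build GRCh38 are listed, with no versions or order, per the submitters' processing notes; GRCh38 is a human build while the symbols are those of mouse, so the reference behind the values is open. The authors' values are read as FPKM, from StringTie and from the values, since the file header gives no unit. Per gene, the deposited table gives a p-value and a q-value, a fold (ratio of group means) and its log2. It lists genes above 1 FPKM in at least 1 library. Depth is unknown: over a scan of possible depths, at most 14.0% to 16.9% of low values per library came within 0.05 of being whole reads. Chance gives 10% at any 1 depth and more for the highest of a scan, so no depth was read from these shares. Whether counting used the strand is not stated, so Ackr4, Ccl25, Ccl27a, Cx3cr1, Cxcl10, Cxcl16 and Xcl1, whose exons overlap a gene on the opposite strand, are uncertain. Ackr1, whose exons overlap Cadm3 on the same strand, is uncertain with either way of counting.

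The filter kept genes at 1 FPKM or more in 3 or more libraries. Limma-trend (robust, two-sided) was applied to log2(FPKM + 0.1), and fold changes on that scale understate the change of low genes. The smallest p of an exact permutation test of 3 against 3 libraries is 0.1, and such tests were left out. Lengths came from GENCODE M21 (GRCm38; longest principal transcript), known for 14191 tested genes (96.7%). The length trend was removed per library by loess (span 0.3) of deviations from the gene mean. Alternatives were other pseudocounts (1 and 0.01), filters (none, at least 5 FPKM) and scalings, the replicate number as a block and each library left out. Named were called members, the most abundant member and that with the smallest p of each group of attracted cells, and the 2 genes of each other list with the smallest p, or more where called; the remaining members are given so that every member is accounted for. The counts cover all members, but 1 member is not reported here by name. The members and lists were chosen with earlier results of these data known. The p-values rest on variation among libraries that the labels do not tie to separate animals, so it may be technical. Scripts were tested on simulated data. Software was Python 3.11.15 and R 4.3.3 with statmod 1.5.0 and limma 3.58.1.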

Additional observations from a re-analysis of the deposited data

How the results depend on the processing

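Limma called 1773 of all tested genes and 2 members, both higher; 0 members were lower under any alternative. With median-centred libraries 755 genes and 0 members were called, with quantile normalization 749 and 0. With the length trend removed 306 genes and 2 members were called. With the replicate block 233 genes and 0 members were called, and with the replicate block and the length trend removed 112 genes and 1 member. The labels do not say that the numbers pair the samples. Same-numbered deviations correlated at 0.183, -0.067 and -0.125, and not every sample correlated best with its own number. These correlations cannot settle the pairing, since deviations from a mean of 3 libraries are tied to each other. Leaving out 1 library gave 156 to 890 genes and 0 to 1 members, or 73 to 221 genes and 0 to 1 members with the length trend also removed. The cause was not tested, beyond the fewer samples of those fits.

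Ackr3 missed the threshold with median centring (0.88, limma adjusted p = 0.0775), quantile normalization (0.89, 0.0706), the block (1.06, 0.106) and the length trend removed (0.79, 0.157), and Ccl12 with median centring (0.91, 0.0953), quantile normalization (0.93, 0.0806) and the block (1.09, 0.11; 1.64, 0.11 with the length trend removed). Ccl7 passed with at least 5 FPKM (0.74, 0.0426) and with the length trend removed (1.07, 0.0452, or 0.0395 with the block). It missed the threshold with median centring (0.56, 0.139), quantile normalization (0.72, 0.0679) and the block alone (0.74, 0.0884). Signs turned in members that were never called. Among the members named by rule, log2 fold changes with the length trend removed, with or without the block, were 0.11 for Ccl3, 0.25 for Ccl8, -0.10 for Ccr1, -0.11 for Cxcl12, -0.06 for Cxcr3 and -0.10 for Cxcr4, and among the others -0.05 for Ccr2, -0.08 for Cx3cr1, -0.10 for Cx3cl1, 0.28 for Ccl27a and 0.21 for Ccl21b with the length trend removed. With median centring they were -0.03 for Ccr1, -0.01 for Cxcl12, -0.14 for Cxcr3, -0.17 for Cxcr4, -0.02 for Pf4 and -0.00 for Cx3cl1, with quantile normalization -0.09 for Cxcr3 and -0.00 for Cxcr4, and with a pseudocount of 1 -0.02 for Cxcr3. When each library was left out in turn, the log2 fold changes of members named by rule that changed sign ran from -0.20 to 0.48 for Ccl21a (0.11 to 0.74), -1.05 to -0.28 for Ccl27b (-0.39 to 0.48), -0.95 to 0.37 for Ccl3 (-0.64 to 0.70), -0.62 to 0.03 for Ccl8 (-0.02 to 0.61), -0.31 to 0.52 for Ccr1 (-0.58 to 0.25), -1.06 to 0.24 for Ccrl2 (-1.29 to 0.01), -0.07 to 0.35 for Cxcl12 (-0.36 to 0.11), -0.62 to 0.22 for Cxcr2 (-0.90 to -0.06), -0.37 to 0.47 for Cxcr3 (-0.43 to 0.36), -0.31 to 0.21 for Cxcr4 (-0.45 to 0.08) and -0.17 to 0.44 for Pf4 (0.43 to 0.87), with the length trend also removed in parentheses. Other members that changed sign in at least 1 such fit were Ackr4, Ccl4, Ccl5, Ccl21b, Ccl27a, Ccr2, Cx3cl1, Cx3cr1, Cxcl3, Cxcl9, Cxcl10 and Cxcl14.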

Other observations

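Genes that induce chemokines also differed between libraries of 1 group; these 3 genes were chosen after their values were seen, and no test was made. Il1b measured 91.9, 191 and 106 FPKM in rFGF4 replicates 1 to 3, against 54.7, 303 and 340.2 FPKM in PBS replicates 1 to 3, and Tnf 13.6, 38.7 and 5.32 FPKM with rFGF4, against 6.41, 21.3 and 28.8 FPKM with PBS. PBS replicate 1 was the lowest library in Il1b and rFGF4 replicate 3 in Tnf, the libraries that were also low in Cxcl2, Ccl3 and Ccl4. The interferon-responsive gene Irf1 was highest in PBS replicate 3, where Cxcl9, Cxcl10 and Ccl5 stood high. Irf1 measured 15.9, 11.9 and 13.6 FPKM with rFGF4, against 9.82, 10.5 and 30.3 FPKM with PBS.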
